A study of Homo sapiens with 6 samples.

Results

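Imprinted genes and the regions that control them were examined in the 5-hydroxymethylcytosine (5hmC) and 5-methylcytosine (5mC) peak lists of A2058 cells, a human melanoma line, made to overexpress wild-type TET2. Cells kept in high glucose for 7 days were set against cells kept in normal glucose for 7 days, and all of them carried the TET2 transgene. Antibodies to the modified bases enriched the DNA, in hMeDIP-seq for 5hmC and in MeDIP-seq for 5mC, with 1 library per mark and glucose level, so no difference between glucose levels has a replicate check and no p-value between them is given. The labels give neither the glucose concentrations nor whether the transgenic line was a clone, and no RNA was measured, so neither TET2 expression nor the melanoma identity could be checked. Members were chosen by position alone, as every listed region (hg19) that overlaps any of 8 windows: H19-IGF2 at chr11:2010000-2175000, KCNQ1-CDKN1C at chr11:2460000-2910000, SNRPN at chr15:25060000-25230000, DLK1-MEG3 at chr14:101190000-101330000, GNAS at chr20:57410000-57490000, PEG3 at chr19:57320000-57355000, MEST at chr7:130125000-130148000 and PEG10 at chr7:94280000-94300000. There were 550 members among 593403 regions on chromosomes 1 to 22 and X. Of these, 154 were 5hmC regions in high glucose and 181 were 5hmC regions in normal glucose, while 109 were 5mC regions in high glucose and 106 were 5mC regions in normal glucose.

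An imprinted gene is expressed mainly from the copy inherited from the mother or mainly from the copy inherited from the father. The choice is set by control regions, CpG-rich stretches of DNA that carry 5mC on a single parental copy, set in the germline or, as at the MEG3 promoter and NESP55, after fertilisation, and they act on whole clusters of genes through insulators (H19 and IGF2), long noncoding RNAs (KCNQ1OT1) or promoters. TET2 belongs to the enzymes that oxidise 5mC to 5hmC, a step on the way to loss of methylation. Most of the control regions treated here are known to carry 5mC on the maternal copy, and those of H19-IGF2 and DLK1-MEG3 and the NESP55 region of GNAS on the paternal copy. The peak lists do not separate the parental copies.

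A choice of 5 of the promoters that the RefSeq table holds for these loci, each at a control region or gene start whose marks are described here, is given on GRCh38.p14, each 300 bases long, on the plus strand and read 5′ to 3′, with every CpG, the site at which both marks mainly occur, in capitals. They were matched by gene symbol and start order, not by coordinates, since the peaks are on hg19. The SNURF-SNRPN promoter lies at chr15:24954737-24955036, the MEG3 promoter at chr14:100825858-100826157, the upstream and downstream MEST starts at chr7:130485925-130486224 and chr7:130491835-130492134, and the NESP55 start of GNAS at chr20:58839498-58839797.
SNURF-SNRPN: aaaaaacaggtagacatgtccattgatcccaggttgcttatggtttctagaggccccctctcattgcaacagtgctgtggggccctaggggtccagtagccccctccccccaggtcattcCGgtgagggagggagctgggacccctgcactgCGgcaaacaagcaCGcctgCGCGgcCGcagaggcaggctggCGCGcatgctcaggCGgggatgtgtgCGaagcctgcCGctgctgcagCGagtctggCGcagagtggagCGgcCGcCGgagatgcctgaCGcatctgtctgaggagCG
MEG3: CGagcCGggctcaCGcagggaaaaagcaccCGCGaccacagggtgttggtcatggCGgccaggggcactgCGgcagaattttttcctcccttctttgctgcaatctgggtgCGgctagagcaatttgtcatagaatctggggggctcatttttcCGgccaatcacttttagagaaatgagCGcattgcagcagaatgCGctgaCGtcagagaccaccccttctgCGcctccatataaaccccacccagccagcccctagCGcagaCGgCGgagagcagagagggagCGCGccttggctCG
MEST upstream start: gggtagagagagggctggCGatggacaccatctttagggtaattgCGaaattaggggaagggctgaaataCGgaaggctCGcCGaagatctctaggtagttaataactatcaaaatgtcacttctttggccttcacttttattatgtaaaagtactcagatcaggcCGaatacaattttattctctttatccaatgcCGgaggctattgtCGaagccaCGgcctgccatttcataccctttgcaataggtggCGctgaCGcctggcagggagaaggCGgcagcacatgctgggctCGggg
MEST downstream start: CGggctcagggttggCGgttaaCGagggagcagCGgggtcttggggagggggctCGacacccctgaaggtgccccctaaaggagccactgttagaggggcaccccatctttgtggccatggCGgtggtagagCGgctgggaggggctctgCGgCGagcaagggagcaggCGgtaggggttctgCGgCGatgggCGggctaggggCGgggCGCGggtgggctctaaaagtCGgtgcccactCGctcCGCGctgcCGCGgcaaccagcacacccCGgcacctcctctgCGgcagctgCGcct
NESP55 start of GNAS: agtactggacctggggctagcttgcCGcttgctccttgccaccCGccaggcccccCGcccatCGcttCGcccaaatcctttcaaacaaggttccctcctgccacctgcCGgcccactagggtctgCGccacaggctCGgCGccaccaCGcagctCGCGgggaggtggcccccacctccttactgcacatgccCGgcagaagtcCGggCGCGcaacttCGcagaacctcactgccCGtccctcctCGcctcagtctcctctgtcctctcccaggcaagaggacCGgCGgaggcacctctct
The SNURF-SNRPN sequence holds 18 CpGs, the MEG3 sequence 19, the NESP55 sequence 21, the upstream MEST start 13 and the downstream MEST start, 5910 bp further on, 25. The median over 34796 RefSeq promoters of the same length was 14. The letters TGCCGC, the motif of the imprint-binding zinc-finger protein ZFP57, or their reverse complement GCGGCA, occur 3 times in the downstream MEST start, 2 times in SNURF-SNRPN and 1 time in each of the other three sequences. They occur at least 1 time in 16.7% of all these promoters. A match is a description of the letters, not evidence of binding.

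Each list gives a fold enrichment and a -log10 p-value for every region, both the authors' own. From these 2 columns the number of fragments stacked at the highest point of each region, the summit fragments, was worked out for every region. The background, the fragments expected at a position without enrichment, was 3.03 (high glucose) and 2.64 (normal glucose) for 5hmC, and 0.737 (high glucose) and 0.615 (normal glucose) for 5mC. The weakest listed regions had 9 (high glucose) and 8 (normal glucose) summit fragments for 5hmC and 4 in each 5mC list, so a stretch without a region can still carry the mark below that level. The background corresponds to about 28.0 M and 27.5 M 5hmC reads and to 6.14 M and 5.11 M 5mC reads in high and normal glucose. This takes a genome of 2700 Mb and, as the fragment length, the width of the narrowest listed region. That width was 292 bp and 259 bp for 5hmC, and 324 bp and 325 bp for 5mC, in high and normal glucose. The 5mC values thus rest on fewer fragments.

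As a set, the 8 windows were more densely covered by both marks than the genome, with the SNRPN window as an exception. 5hmC regions covered 12% of the loci in high glucose and 13.7% in normal glucose, against 3.90% and 4.23% of the genome. 5mC regions covered 9.27% of the loci in high glucose and 8.31% in normal glucose, against 2.42% and 2.25% of the genome. In the SNRPN window 5hmC covered 2.41% in high glucose and 2.27% in normal glucose and 5mC 0% in both, below the genome for both marks. The members were not stronger than other regions on the whole. A -log10 p of at least 10 was reached by 74 of the 154 high-glucose and 64 of the 181 normal-glucose 5hmC members, where 49.9% and 40.6% of all 5hmC regions reached it. For 5mC it was reached by 57 of 109 members in high glucose and 55 of 106 in normal glucose, where 51.8% and 51.5% of all 5mC regions reached it.

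The strongest 5mC regions of the loci lay on control regions, those of GNAS and MEST, at both glucose levels. Their positions on hg19 were placed from general knowledge of imprinting as 12 windows of 39.2 kb in all, and widening each of them by 1 kb is among the alternatives. 5mC regions covered 60.8% of these windows in high glucose and 60.9% in normal glucose, while they covered 7.34% and 6.34% of the rest of the loci. 5hmC regions covered 25.1% of the windows in high glucose and 21.1% in normal glucose, against 11.5% and 13.5% of the rest. The same 9 of 12 windows held a 5mC region in both glucose levels, and 8 of them were covered to at least 75% in both. 5mC cover exceeded 5hmC cover in 8 of the 12 windows in high glucose and in 9 of the 12 in normal glucose.

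**Figure D1:**
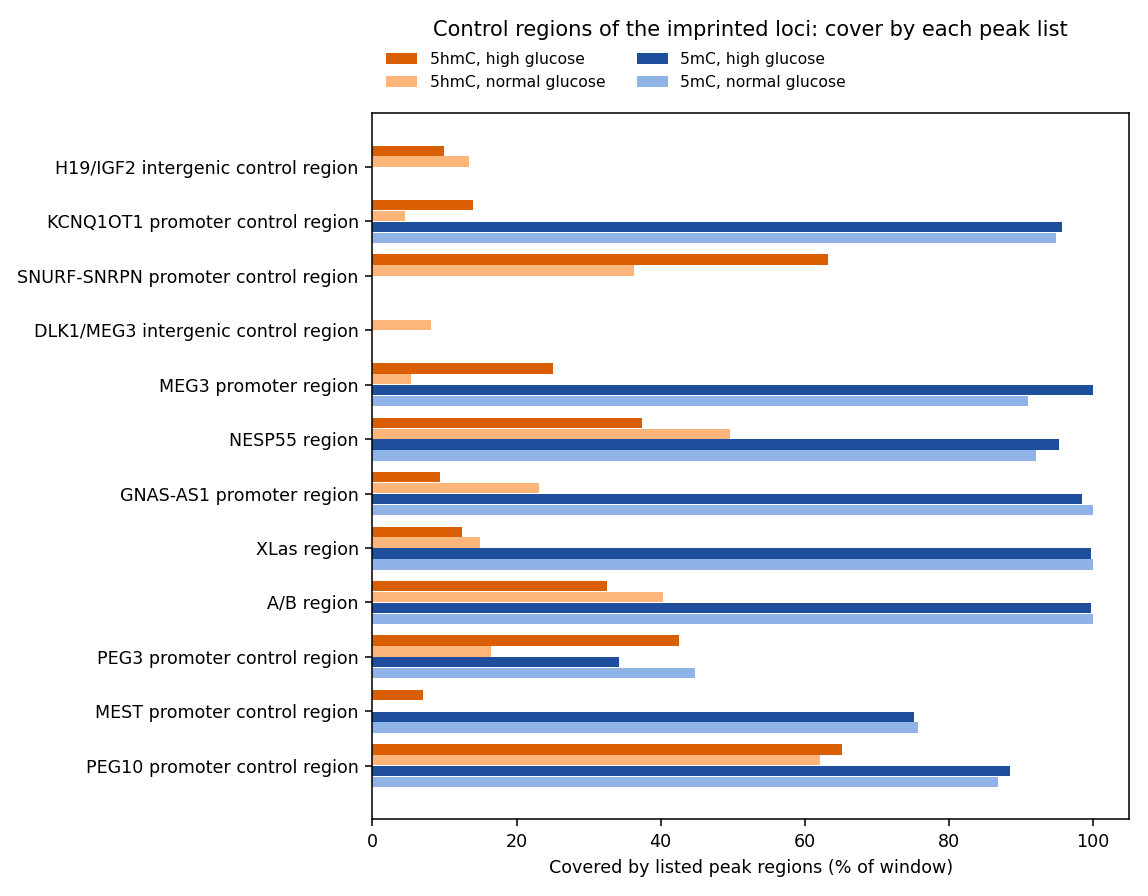
Share of each of the 12 control regions that is covered by listed regions (percent of the window, x axis), with 5hmC and 5mC drawn apart and high glucose set above normal glucose. 5mC covers 9 windows in part or whole at both glucose levels and none of the H19/IGF2 intergenic, SNURF-SNRPN and DLK1/MEG3 intergenic windows, while 5hmC covers 63.2% of SNURF-SNRPN in high glucose and 36.3% in normal glucose.

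Among the control regions known for maternal 5mC, the A/B region of GNAS had the most summit fragments at both glucose levels. In high glucose MEST stood above it by -log10 p, at 149.7 against 147.5, and by fold enrichment, at 50.8 against 36.9. In normal glucose the fold was 40.6 at MEST and 59.5 at A/B. The fragments expected around GNAS 5mC regions were a median of 1.93 times the background in high glucose and 1.69 times in normal glucose. For all 5mC regions they were 1.23 and 1.19 times. GNAS encodes the stimulatory G protein alpha subunit, and alternative first exons of the same locus give NESP55, a neuroendocrine secretory protein, and XLas, a long form of the subunit. The A/B region, the control element next to the promoter of the stimulatory subunit, held 110 5mC summit fragments at chr20:57463271-57465329 in high glucose and 100 at chr20:57463068-57465370 in normal glucose, with a -log10 p of 147.5 and 176. The fragments expected around it were 2.01 in high glucose and 0.698 in normal glucose, so its fold enrichment was 36.9 and 59.5 although the summits differed by 10 fragments. The promoter of the antisense RNA GNAS-AS1 and the XLas promoter lay in a single 5mC region, chr20:57425684-57431454 with 82 summit fragments in high glucose and chr20:57425612-57431490 with 83 in normal glucose. NESP55, the paternally methylated promoter of the locus whose start is printed above, had 114 5mC summit fragments, the most of the 3 in high glucose, at chr20:57413797-57418394 in high glucose and 98, fewer than the A/B region, at chr20:57414287-57418496 in normal glucose. Scaled to the background, high glucose over normal glucose, these summits had a ratio of 0.917 at A/B (95% interval 0.693 to 1.22), 0.824 at GNAS-AS1 and XLas (0.60 to 1.13) and 0.970 at NESP55 (0.734 to 1.28). The intervals are exact and cover counting error only, and all 3 include 1.

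The MEST, PEG10, PEG3 and KCNQ1OT1 control regions also held 5mC at both glucose levels. MEST, a hydrolase-like protein of mesoderm, held 90 5mC summit fragments at chr7:130130161-130133364 in high glucose and 75 at chr7:130130071-130133354 in normal glucose, a scaled ratio of 1.0 (0.728 to 1.38). PEG10, a gene of retrotransposon origin needed for the placenta, had 62 fragments at chr7:94285541-94287685 in high glucose and 53 at chr7:94285540-94287644 in normal glucose. PEG3, a zinc-finger protein, had 51 fragments at chr19:57351349-57352323 in high glucose and 37 at chr19:57351267-57352465 in normal glucose. The scaled ratio was 0.976 for PEG10 and 1.15 for PEG3, so the MEST and PEG10 summits, with more fragments in high glucose, were close to equal once scaled to the background. The promoter of KCNQ1OT1, the noncoding RNA that silences CDKN1C and its neighbours on the paternal copy, had 37 fragments at chr11:2720047-2722308 in high glucose and 39 at chr11:2720066-2722499 in normal glucose. The MEG3 promoter region, whose 5mC is paternal and whose gene is a noncoding RNA, held a single 5mC region at chr14:101290337-101294809 in high glucose with 37 fragments. In normal glucose the same stretch was listed as 2 regions, chr14:101290399-101293007 with 34 fragments and chr14:101293318-101294825 with 33.

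**Figure D2:**
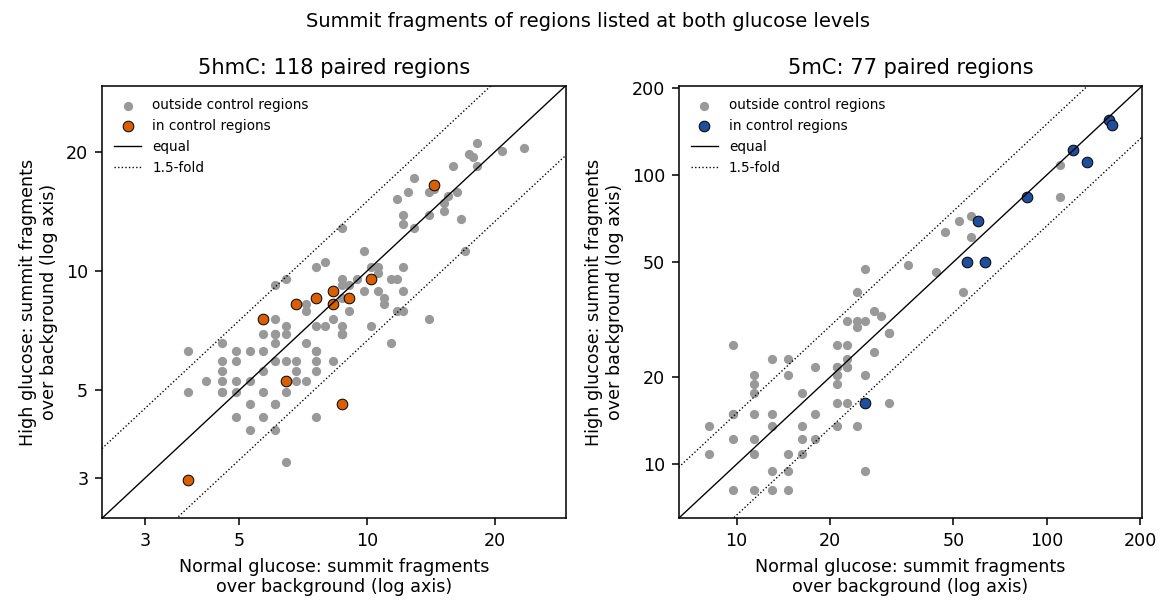
Summit fragments over background at regions paired between the glucose levels, with high glucose on the y axis and normal glucose on the x axis (both log scale), 5hmC left and 5mC right; coloured points lie in control regions, the solid line marks equality and dotted lines 1.5-fold. Most control-region points lie near equality, with median ratios of 0.989 for 11 5hmC pairs and 0.917 for 9 5mC pairs, and those past 1.5-fold are the A/B pair for 5hmC (0.530) and a PEG3 pair for 5mC (0.625).

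The 3 windows without listed 5mC were the H19/IGF2 intergenic, SNURF-SNRPN and DLK1/MEG3 intergenic control regions. For the H19/IGF2 region, the insulator whose paternal methylation lets IGF2, a fetal growth factor, use the enhancers of H19, the nearest 5mC region began 157 bp away in high glucose and 163 bp away in normal glucose. That region lay over the body of H19, a noncoding RNA, at chr11:2016415-2018655 with 34 summit fragments in high glucose and at chr11:2016428-2018649 with 27 in normal glucose. For the DLK1/MEG3 intergenic region the nearest was 1659 bp away in high glucose and 8117 bp away in normal glucose. For SNURF-SNRPN, the promoter whose methylation silences the maternal copies in the Prader-Willi region, it was 29913 bp away in high glucose and 29844 bp away in normal glucose, and the whole SNRPN window of 170 kb held 0 5mC regions in either list. SNRPN codes for a protein of the splicing machinery.

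The SNURF-SNRPN control region held listed 5hmC and no listed 5mC at either glucose level. The 5mC lists rest on fewer fragments than the 5hmC lists, so this does not show that 5mC was absent or replaced. The SNURF-SNRPN 5hmC region was chr15:25200408-25201653 with 50 summit fragments and a -log10 p of 36.5 in high glucose. In normal glucose it was chr15:25200445-25201161 with 38 fragments and a -log10 p of 30.6. The scaled ratio was 1.14 (0.736 to 1.79). It was the strongest of the 7 high-glucose and 6 normal-glucose 5hmC regions of the SNRPN window. The H19/IGF2 intergenic window also had 5hmC at both glucose levels and 5mC at neither, with 5hmC over 10% of its length in high glucose and 13.4% in normal glucose. Unlike at SNURF-SNRPN, that 5hmC ran into listed 5mC, since its top region overlapped the H19-body 5mC region at both glucose levels, and with the windows widened by 1 kb 10 of 12 held 5mC in each list. Its top 5hmC region had 25 summit fragments at chr11:2018443-2019404 in high glucose and 18 at chr11:2017752-2019348 in normal glucose.

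At the 9 control regions with listed 5mC, the strongest 5hmC region, where there was one, had a lower -log10 p than the strongest 5mC region at both glucose levels. The marks were read in separate libraries with unlike backgrounds, so this order does not compare their amounts. PEG10 had 5hmC over 65.2% of its window in high glucose and 62.1% in normal glucose, yet the -log10 p of its strongest 5hmC region was 7.60 and 9.27. NESP55 was covered to 37.4% in high glucose and 49.6% in normal glucose, the PEG3 region to 42.6% and 16.4%, the MEG3 promoter region to 25.1% and 5.30%, and the KCNQ1OT1 promoter to 14% and 4.54%. The direction was mixed, with 6 of the 12 windows more covered by 5hmC in high glucose. The MEST region had a 5hmC region of 16 fragments in high glucose and none in normal glucose, and the DLK1/MEG3 intergenic region had none in high glucose, where the nearest was 48 bp away, and 1 of 11 fragments in normal glucose. The A/B region had 14 5hmC summit fragments in high glucose and 23 in normal glucose, a scaled ratio of 0.530 (0.252 to 1.07), the lowest of the 11 control-region pairs.

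Taken over their whole windows, control regions included, the loci differed in which mark they carried. H19-IGF2 was the locus richest in 5hmC relative to 5mC among those with both marks, with 25.4% of its length under 5hmC and 5.17% under 5mC in high glucose, and 25.2% and 4.31% in normal glucose. Most of this 5hmC lay between the genes, in a stretch singled out after its values were seen, chr11:2062883-2093189 in high glucose and chr11:2062788-2093158 in normal glucose. 5hmC covered 25.3 of 30.3 kb of it in 6 regions in high glucose and 25 of 30.4 kb in 8 regions in normal glucose. It held 60.3% and 60.1% of the 5hmC cover of the locus, and 0 5mC regions at either glucose level. Its strongest region by -log10 p had 64 fragments at chr11:2090268-2093189 in high glucose and 48 at chr11:2090364-2092076 in normal glucose, a scaled ratio of 1.16 (0.785 to 1.72). In normal glucose the strongest 5hmC region of the whole locus lay outside the stretch, at chr11:2127171-2128916 with 62 fragments. Its high-glucose partner, chr11:2127139-2129251, also had 62, a scaled ratio of 0.870 (0.602 to 1.26). The IGF2 gene itself had 5hmC over 13.6% of its length in high glucose and 10.5% in normal glucose, and 5mC over 8.07% and 12.9%.

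**Figure D3:**
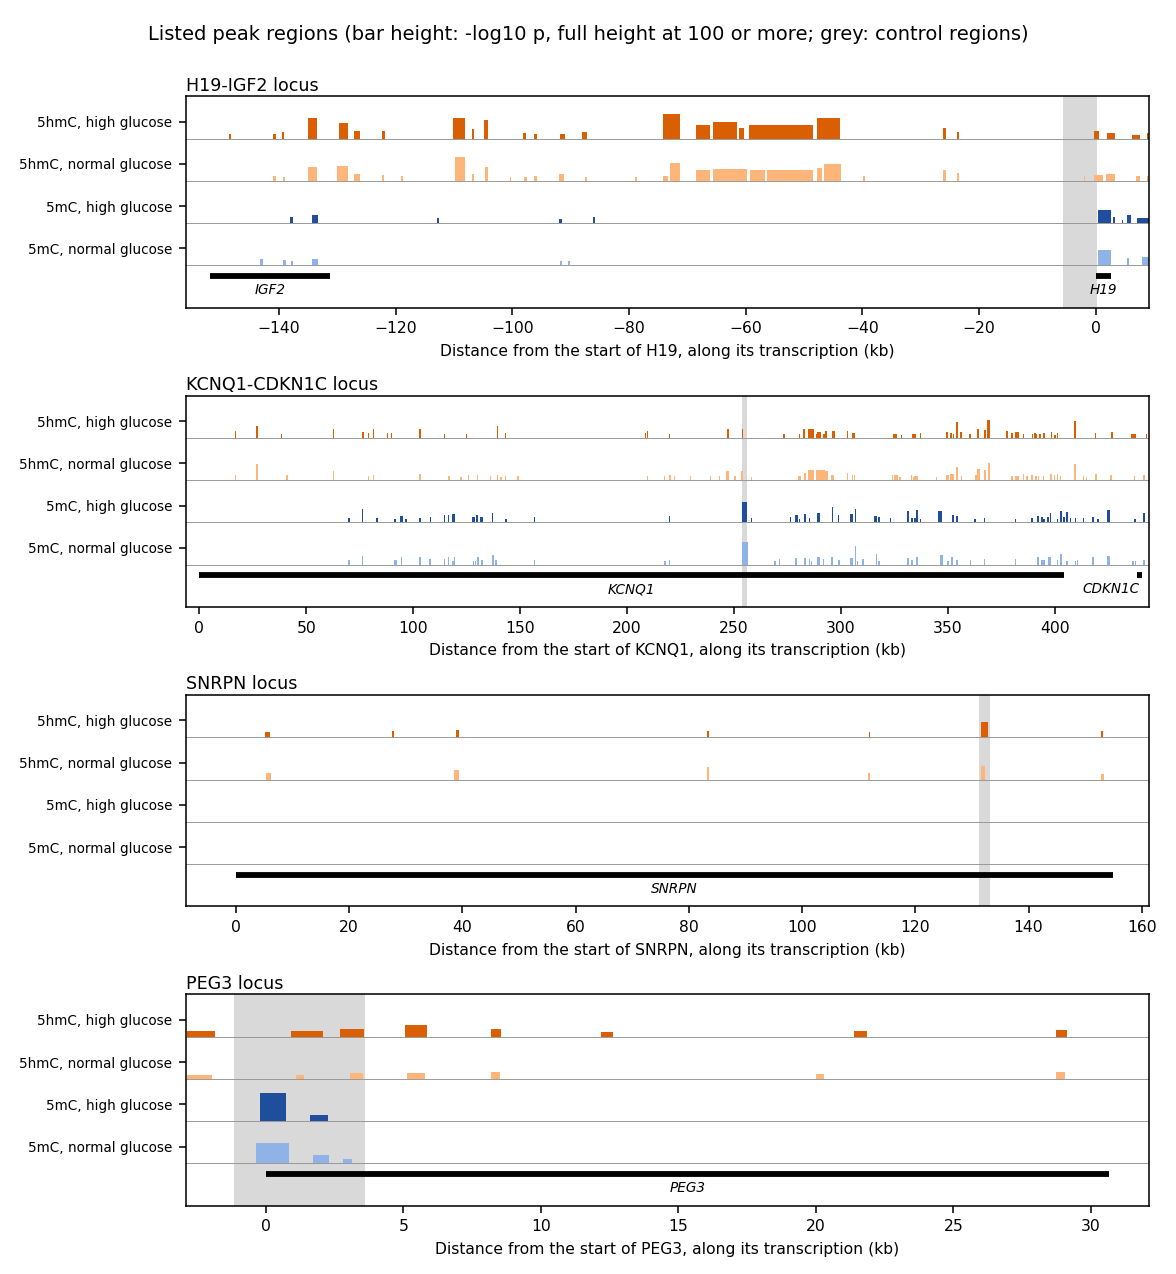
Maps of the H19-IGF2, KCNQ1-CDKN1C, SNRPN and PEG3 loci, with the x axis in kb from the start of H19, KCNQ1, SNRPN or PEG3 along transcription and rows for 5hmC and 5mC in high and normal glucose; bar height is the -log10 p (full height at 100 or more), black bars are genes and grey bands control regions. The 5hmC stretch between H19 and IGF2 and the lack of listed 5mC across SNRPN are seen at both glucose levels.

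KCNQ1-CDKN1C, the longest window, held the most members. It had 63 5hmC regions in high glucose and 72 in normal glucose, and 62 and 61 5mC regions. Most lay in KCNQ1, which encodes a potassium channel, with 57 and 65 5hmC regions and 53 5mC regions in each glucose level. KCNQ1 spans 404 of the 450 kb of the window, so these counts show no concentration in the gene. CDKN1C, an inhibitor of cyclin-dependent kinases, had 0 regions over its gene body in any of the 4 lists. In DLK1-MEG3, the start of DLK1, a membrane protein of the Notch ligand type, carried 62 5mC summit fragments at chr14:101192168-101194735 in high glucose and 68 at chr14:101192208-101194703 in normal glucose, a scaled ratio of 0.760 (0.530 to 1.09). A region between the genes carried both marks: 5mC had 51 fragments at chr14:101286133-101286957 in high glucose and 32 at chr14:101286175-101286938 in normal glucose, and 5hmC had 49 at chr14:101286242-101286885 in high glucose and 38 at chr14:101286365-101286832 in normal glucose. The 5hmC cover of the locus was 10.3% in high glucose and 13.6% in normal glucose, and its 5mC cover was 15.1% and 12.2%.

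GNAS was dense in both marks, with 5hmC over 22.5% of its window in high glucose and 30.3% in normal glucose, and 5mC over 21.9% at each level. A 5mC region near the 3′ end of the gene held 80 fragments at chr20:57483838-57486045 in high glucose and 68 at chr20:57483852-57486039 in normal glucose. The local fragment count expected around GNAS 5hmC regions was a median of 1.81 times the background in high glucose and 1.8 times in normal glucose, against 1.37 and 1.42 times for all 5hmC regions. PEG3 had 5hmC over 15.6% of its window in high glucose and 9.23% in normal glucose, and 5mC over 4.68% and 6.11%. MEST had 5hmC over 11.5% in high glucose and 11.4% in normal glucose, and PEG10 8.14% and 9.27%, with 5mC over 18.4% and 18.8% of MEST and 22.7% and 22.2% of PEG10. At the upstream MEST start 5mC reached 47 fragments at chr7:130125873-130126890 in high glucose and 29 at chr7:130125917-130126965 in normal glucose, a scaled ratio of 1.35 (0.833 to 2.23).

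**Figure D4:**
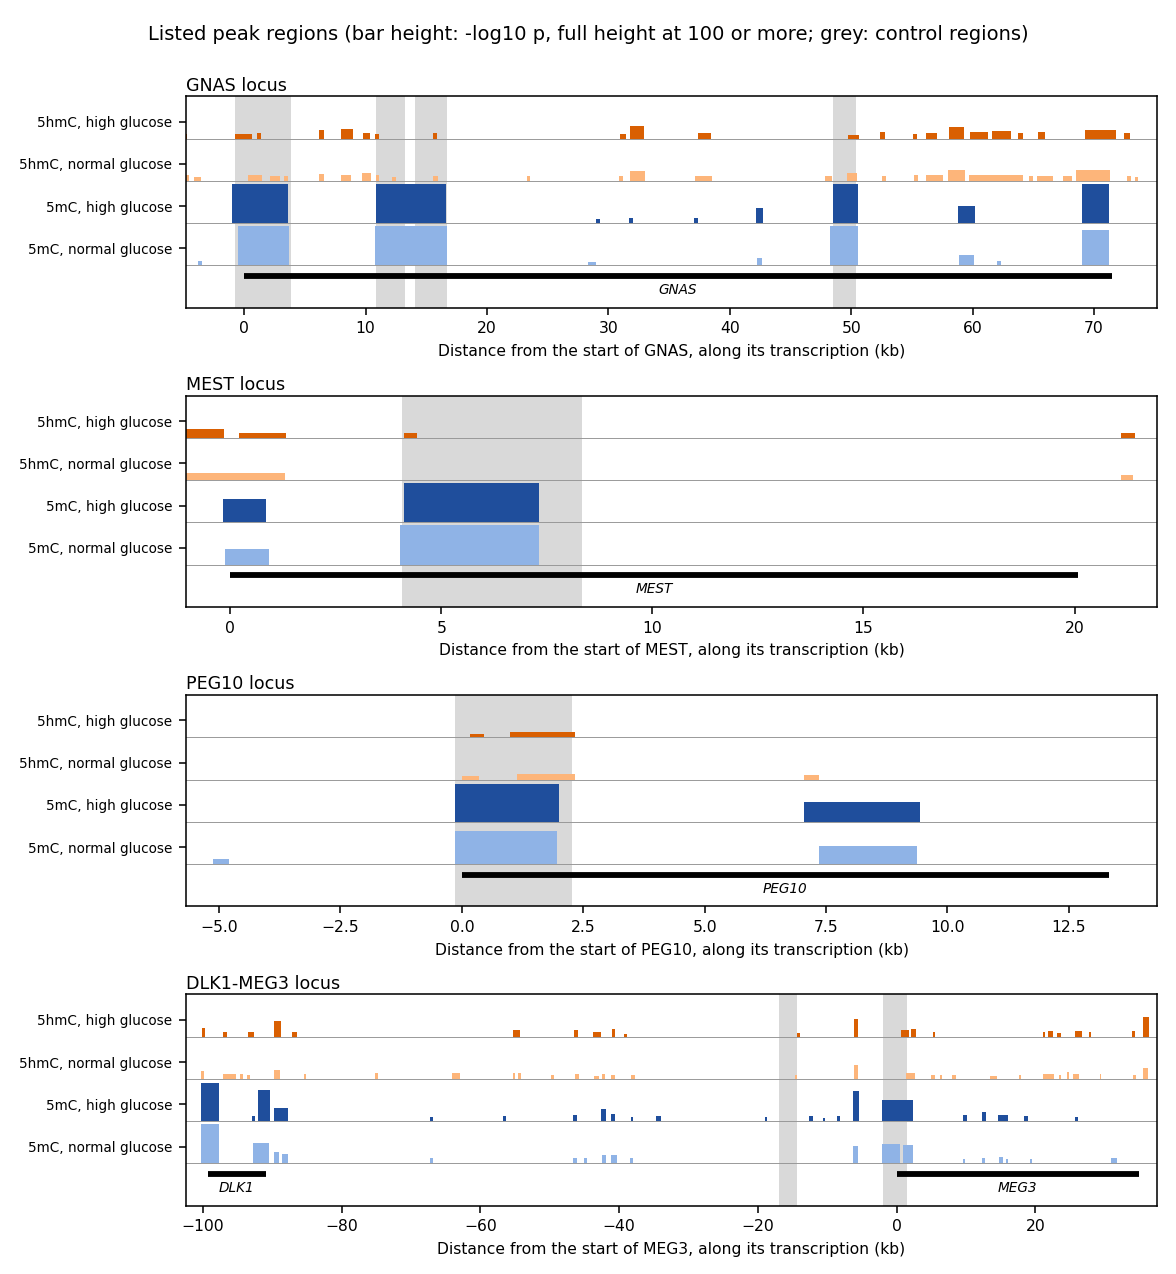
The same maps for the GNAS, MEST, PEG10 and DLK1-MEG3 loci, with the x axis in kb from the start of GNAS, MEST, PEG10 or MEG3 along transcription, bar height as -log10 p (full height at 100 or more) and grey bands for control regions. The GNAS, MEST and PEG10 control regions each lie largely under a 5mC region at both glucose levels, and the DLK1/MEG3 intergenic region under none.

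**Figure D5:**
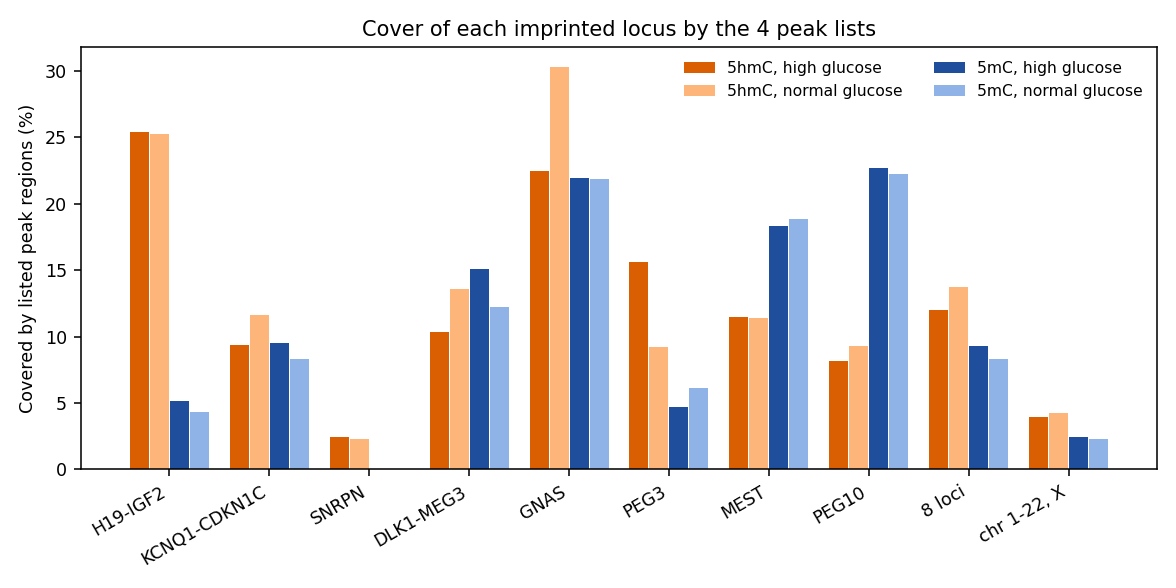
Share of each of the 8 windows, of all 8 together and of chromosomes 1 to 22 and X that listed regions cover (y axis, percent), as bars for 5hmC and then 5mC with high glucose left of normal glucose. H19-IGF2 has 25.4% and 25.2% under 5hmC, and SNRPN has 0% under 5mC in both lists.

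A larger share of the members than of all regions overlapped the other mark. For the 5mC members in normal glucose, however, the interval includes the share of all regions. As a set the windows were more densely covered by both marks than the genome, and the members were wider. In high glucose their median width was 592 bp against 464 bp for 5hmC and 569 bp against 500 bp for 5mC. Density and width ease an overlap of 1 bp, and their part in these shares was not tested. Of the 5mC members, 49 of 109 (45.0%, Wilson 95% interval 35.9 to 54.3) overlapped a 5hmC region of the same cells in high glucose and 50 of 106 (47.2%, 37.9 to 56.6) in normal glucose, against 32.2% and 39.7% of all 5mC regions. The difference between glucose levels, high minus normal, was -2.22 points (-15.3 to 10.9), and its sign depended on the regions taken: it was -5.32 points outside the control regions and 34.3 points in them (8 of 9 regions in high glucose and 6 of 11 in normal glucose), and 6.06 points at a -log10 p of at least 10. Of the 5hmC members, 56 of 154 (36.4%, 29.2 to 44.2) in high glucose and 56 of 181 (30.9%, 24.7 to 38.0) in normal glucose overlapped a 5mC region, against 17.6% and 18.0% of all 5hmC regions.

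Most members overlapped a region of the same mark at the other glucose level by at least 1 bp. With an overlap of at least 50% of both regions, the 5hmC shares were 60.4% in high glucose and 51.4% in normal glucose. The 5mC shares by that rule were 62.4% and 64.2%. The counts that follow are for 1 bp. For 5hmC, 129 of 154 high-glucose members (83.8%, 77.1 to 88.8) overlapped a normal-glucose region, and 124 of 181 normal-glucose members (68.5%, 61.4 to 74.8) overlapped a high-glucose region. The 5hmC order was the reverse, 71.6% in high glucose and 84.4% in normal glucose, when both lists were held to a -log10 p of at least 10. For 5mC, the counts were 79 of 109 (72.5%, 63.4 to 80.0) in high glucose and 83 of 106 (78.3%, 69.5 to 85.1) in normal glucose. The members without a partner numbered 25 in high glucose and 57 in normal glucose for 5hmC, where 24.1% and 31.2% of all regions had none, and 30 and 23 for 5mC, where 28.3% and 21.5% had none. The interval of the high-glucose 5hmC share lies above the 75.9% of all high-glucose 5hmC regions that had a partner. It covers counting only and takes neighbouring regions as independent. This share was 81.1% without GNAS and 90.1% without KCNQ1-CDKN1C. These members were also wider, with a median of 592 bp against 464 bp for all high-glucose 5hmC regions, which was not allowed for. The other shares were near those of the lists as a whole.

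Few strong members were listed at a single glucose level. At a -log10 p of at least 10, 3 of 74 5hmC members in high glucose and 2 of 64 in normal glucose had no partner, where 9.88% and 8.90% of such regions in the whole lists had none. For 5mC there were 2 of 57 in high glucose and 2 of 55 in normal glucose, where 6.97% and 4.21% had none. The high-glucose 5hmC regions were chr11:2843303-2844061 in KCNQ1 with 24 fragments, chr15:25096397-25096813 in SNRPN with 21 and chr19:57330244-57330695 in PEG3 with 21. The normal-glucose ones were chr14:101228389-101229558 between DLK1 and MEG3 with 18 and chr14:101316981-101317335 in MEG3 with 20. The 5mC ones were chr11:2015700-2016085 beside H19 with 11 and chr11:2104890-2105269 between H19 and IGF2 with 12 in high glucose, and chr11:2161735-2162355 in IGF2 with 11 and chr11:2737091-2737509 in KCNQ1 with 10 in normal glucose. None of these 9 lay in a control region. The control regions held 6 of the 74 and 6 of the 64 strong 5hmC members in high and normal glucose. For 5mC they held 9 of the 57 and 10 of the 55, so this count does not set them apart.

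By the median, and scaled to the background, summit fragments of paired regions were close to equal between the glucose levels. Over 118 5hmC pairs the median ratio, scaled to the background and taken as high over normal glucose, was 0.985, with a range of 0.512 to 1.65. It was 0.994 over all 141477 5hmC pairs. Of the 118, 2 were at least 1.5-fold higher in high glucose and 8 at least 1.5-fold lower, where 4.32% and 6.22% of all 5hmC pairs were. Over 77 5mC pairs the median was 1.0, with a range of 0.365 to 2.64, against 0.962 over all 70264 5mC pairs. Of the 77, 11 (14.3%) were higher and 8 (10.4%) lower by that rule, where 7.40% and 10.8% of all 5mC pairs were. All 11 higher pairs lay outside the control regions, and 2 of them had a -log10 p of at least 10 in both lists. By locus, the 5hmC median ran from 0.801 in PEG10 (2 pairs) to 1.11 in DLK1-MEG3 (16 pairs), and the 5mC median from 0.887 in PEG3 (2 pairs) to 1.18 in MEST (2 pairs).

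Among pairs with a -log10 p of at least 10 in both lists, 0 of 50 5hmC pairs were at least 1.5-fold higher in high glucose and 2 were lower, where 2.11% and 2.26% of all such pairs were. These were chr15:25151980-25152307 in SNRPN, with 23 summit fragments in high glucose and 37 in normal glucose and a ratio of 0.541 (0.307 to 0.934), and chr20:57484041-57486618 at the 3′ end of GNAS, with 34 and 45 fragments and a ratio of 0.657 (0.408 to 1.05). Of 46 such 5mC pairs 2 were higher and 2 were lower, where 3.77% and 6.01% of all such pairs were. The higher ones were chr11:2761827-2762597 in KCNQ1, with 29 fragments in high glucose and 15 in normal glucose (1.61, 0.837 to 3.24), and chr20:57456966-57457508 in GNAS, with 35 and 16 (1.82, 0.983 to 3.53). The lower ones were chr11:2781627-2782834 in KCNQ1, with 12 and 19 (0.527, 0.233 to 1.14), and chr19:57349831-57350492 in the PEG3 control region, with 12 and 16 (0.625, 0.270 to 1.41). Of these 6 pairs, the counting interval left out 1 in the SNRPN pair alone. These intervals are not adjusted for the number of pairs and do not cover differences between cultures.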

How the data were processed

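Per the submitters' processing notes, hg19 was the build and the tools were Bowtie 1.0.0, CASAVA 1.8.2, bedtools 2.17.0 and SAMtools 0.1.18, with no roles. Which peak caller and control were used, and whether duplicates were removed, is not given in the sources used here. Narrow peaks were deposited by the authors as 1 list for each library: fold enrichment (a ratio), -log10 p-value, -log10 q-value, display score and summit position. The lists hold q-values of up to 0.05. Groups follow the sample titles, although the names of the peaks call the high-glucose libraries Ctrl and the normal-glucose libraries Low. The 2 inputs were not analysed here as samples. MeDIP and hMeDIP recover CpG-dense DNA more readily and do not give a methylation level per site.

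Summit fragments were recovered for 100% of regions, taking fold as fragments plus 1 over expected plus 1 and the p-value as a Poisson tail. The background was the smallest expected value in a list, and ratios were scaled to it. Shared regions overlap by at least 1 bp; pairs are mutual best overlaps. Regions named by rule are strongest regions of control regions and loci, though not every one of these is named. The rule also took those past a -log10 p of 10 listed at a single glucose level, and strong pairs past 1.5-fold. Other named regions were chosen after their values were seen. They include the 5mC regions at the upstream MEST start, near the 3′ end of GNAS, and where both marks lay between DLK1 and MEG3. Ratio intervals are exact (Clopper-Pearson) and share intervals Wilson, at 95%. The fragment recovery was tested on data simulated with the same fold and Poisson formulas, so the test cannot show whether the peak caller used them. The simulation held no regions as weak as the weakest 5mC regions, which had 4 fragments. Gene and control-region windows were written from general knowledge, since no hg19 annotation was used. Of 11 gene lengths, 9 lay within 250 bp of RefSeq. The others were H19, at 2660 bp against 6091 bp in RefSeq, and DLK1, at 8266 bp against 11333 bp. A length does not test position, and the control-region windows had no such check. RefSeq promoters were available for 5 of 11 locus genes. The printed ones are those of MEG3, MEST (upstream and downstream starts), GNAS and SNURF, which is not among the 11. Members and lists were chosen with earlier results of these data known. Alternatives were stricter p and q thresholds, merging, 50% overlap, other scalings, wider control windows and leaving out each locus. Python 3.11.15, NumPy 2.4.6, pandas 2.3.3, SciPy 1.17.1 and bedtools 2.31.1 were used.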

Additional observations from a re-analysis of the deposited data

How the results depend on the processing

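No paired analysis was possible because each group has 1 library. Of 133 alternative values over 19 results, 109 moved by less than their counting spread or by less than 1.5 times and 24 moved further; leaving out each locus kept 83 of 88. The difference in 5mC overlap changed sign, from -2.22 points to 0.828 with equal numbers of top regions and 6.06 at the p threshold that follows. At a -log10 p of at least 10 the members numbered 74 and 64 (5hmC, high and normal glucose) and 57 and 55 (5mC). Without KCNQ1-CDKN1C they numbered 91 and 109 for 5hmC and 47 and 45 for 5mC, and the shared share of high-glucose 5hmC members was 90.1%. At that p threshold 5hmC cover of the loci was 7.69% and 7.30%, and 6 control regions in each glucose level held 5hmC. The shared share was 71.6% and 84.4% (5hmC) and 80.7% and 87.3% (5mC) with both lists held to that threshold, and 60.4%, 51.4%, 62.4% and 64.2%, in the same order, with an overlap of at least 50% of both regions. The order of the 5hmC shares, higher in high glucose as reported, turned round at the stricter p. The median 5hmC ratio was 1.13 without scaling and 1.11 scaled to reads, and the median 5mC ratio was 1.20 without scaling, so whether a median lies above or below 1 rests on the scaling. Scaling to reads differs from scaling to the background only by the fragment length, 292 bp in high and 259 bp in normal glucose for 5hmC. The cause of the other moves was not tested. With 1 library per group, depth and culture cannot be told apart from glucose, and the 5mC lists, with about 4 fragments at their weakest regions, limit what an absent 5mC region shows.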
